A study of Mus musculus with 531 samples.

Results

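The genes described here are Fgf5, Pou3f1, Otx2, Sox3, Zic2 and Lef1, 6 of the 22084 genes counted in single cells of mouse embryos. They were named as genes associated with the formative and primed states of the epiblast, and the rule that picks them uses no measured value. The choice was made with earlier results of these data known. All 6 were found by their Ensembl identifiers and all 6 passed the filters on low counts of the tests below.

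The epiblast is the tissue of the embryo that gives rise to the fetus. Around implantation its cells leave naive pluripotency, pass through a formative state and become primed for the germ layers. Fgf5 encodes a secreted fibroblast growth factor and is a classical marker of the post-implantation epiblast. Pou3f1 (also known as Oct6) is a POU-domain factor and Otx2 a homeodomain factor, and both take part in the exit from the naive state. Sox3 belongs to the SOXB1 group with Sox1 and Sox2, Zic2 is a zinc-finger factor, and Lef1 is a DNA-binding partner of beta-catenin in the Wnt pathway. Otx2 is also known from the visceral endoderm, the extraembryonic layer around the epiblast, and Lef1 from the mesoderm that forms at the primitive streak.

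The embryos were of the C57Bl/6Babr strain, and the labels give no other genotype and no treatment. Cells were picked by hand from E4.5 embryos after immunosurgery had removed the trophectoderm, from an E5.5 embryo after the visceral endoderm and extraembryonic ectoderm had been pulled off, and from E6.5 embryos after dissection of the extraembryonic tissue. RNA and genomic DNA of the same cell were separated and the RNA was made into full-length cDNA libraries. The DNA was bisulfite sequenced and is not analysed here. The labels name 5 embryos with 91 cells at E4.5, 1 embryo with 80 cells at E5.5 and 2 embryos with 93 cells at E6.5. The study's methods give fewer embryos at E4.5 than the labels, and the labels were followed. Cells with at least 50000 reads on genes and 2000 genes with a read were kept, 75, 59 and 83 at the 3 stages, and their median depth was 918469, 1511811 and 1107378 reads.

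The 6 genes lie on 5 chromosomes of the GRCm38 build, with positions from RefSeq (GRCm38.p6). Fgf5 (ENSMUSG00000029337) is at chr5:98254184-98277033, Pou3f1 (ENSMUSG00000090125) at chr4:124657646-124660655, Sox3 (ENSMUSG00000045179) at chrX:60891366-60893430 and Lef1 (ENSMUSG00000027985) at chr3:131110297-131224357. Otx2 (ENSMUSG00000021848) and Zic2 (ENSMUSG00000061524) share chromosome 14, at chr14:48656781-48667644 and chr14:122475384-122480328. Otx2 and Sox3 are on the minus strand and the other 4 genes on the plus strand. The libraries do not mark strand, and the GENCODE annotation puts the noncoding gene Otx2os1 on the opposite strand across Otx2, so reads of the pair cannot be told apart where their exons overlap. The same holds for Gm2164 across Pou3f1 and Gm43352 across Lef1, and Gm49154 and Gm42449 overlap Otx2 and Lef1 on the same strand.

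RefSeq promoter windows of 250 bases before and 50 after a transcription start were found for 3 of the 6 genes. They are shown because CpG content, the substrate of the DNA methylation that the study followed in the same cells, differed among the 3 genes. CpG dinucleotides are in capitals, and for Otx2 and Lef1, with 4 windows each, the most upstream start is shown. The windows are chr5:98253934-98254233 (plus), chr14:48667595-48667894 (minus) and chr3:131110047-131110346 (plus) in GRCm38.p6.
Fgf5: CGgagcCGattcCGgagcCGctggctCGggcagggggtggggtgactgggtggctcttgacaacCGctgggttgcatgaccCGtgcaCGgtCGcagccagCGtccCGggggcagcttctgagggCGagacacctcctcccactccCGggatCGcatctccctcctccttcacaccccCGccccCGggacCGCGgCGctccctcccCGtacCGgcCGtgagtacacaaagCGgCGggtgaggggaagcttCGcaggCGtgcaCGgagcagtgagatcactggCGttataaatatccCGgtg
Otx2: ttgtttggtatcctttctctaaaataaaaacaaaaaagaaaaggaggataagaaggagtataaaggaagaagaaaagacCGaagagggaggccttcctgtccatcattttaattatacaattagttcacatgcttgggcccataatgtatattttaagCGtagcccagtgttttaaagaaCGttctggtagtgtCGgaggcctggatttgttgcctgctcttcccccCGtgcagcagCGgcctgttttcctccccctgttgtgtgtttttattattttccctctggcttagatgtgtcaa
Lef1: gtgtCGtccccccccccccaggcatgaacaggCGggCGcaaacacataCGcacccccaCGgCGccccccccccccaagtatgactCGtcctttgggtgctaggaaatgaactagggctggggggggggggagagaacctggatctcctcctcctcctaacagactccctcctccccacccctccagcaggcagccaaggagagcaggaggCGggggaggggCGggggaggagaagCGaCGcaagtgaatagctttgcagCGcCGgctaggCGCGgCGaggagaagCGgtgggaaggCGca
The Fgf5 window held 29 CpG, more than 87.1% of the 32817 windows in the table, the Lef1 window 18, more than 70.3% of them, and the Otx2 window 6, below the median of 7. The letters CTTTGA (TCF/LEF core), TAATCC (OTX core), ATGCAAAT (POU octamer) and AACAAT (SOX core) were searched on both strands and were in none of the 3 windows. They were in 16%, 7.06%, 1.74% and 10.7% of all windows.

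Cells were grouped within each stage by clustering on fixed marker genes that exclude the 6 genes, and a cluster was called epiblast-like or like endoderm or mesoderm from the list with the most raised markers. The E4.5 cells split into 19 of epiblast-like type, with all 10 epiblast markers raised, and 56 endoderm-like ones, with 12 of 15 endoderm markers raised. The E5.5 cells split into 51 of the former and 8 of the latter. The E6.5 cells gave 28 of the former, 21 of the latter, a mesoderm-like group of 23 and 11 that stayed unnamed. Of these, the epiblast-like cells had 7 of 10 epiblast markers raised. The endoderm-like cells had 14 of 15 endoderm markers raised, and also 5 of 8 trophoblast markers. The mesoderm-like cells had 7 of 8 mesoderm markers raised, with 6 epiblast and 5 endoderm markers. All 23 mesoderm-like cells came from E6.5 embryo 2.

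Several values bear on how far these names separate cells and stand beside every result below. At E5.5 the endoderm marker Cubn had a read in 0 of 51 epiblast-like cells, which still allows up to 5.88% of such cells. At E6.5 it had reads in 27 of 28 epiblast-like cells, and Apoa1, another endoderm marker, in all 28, at a mean log2(CPM + 1) of 8.98 (CPM, the reads of a gene after scaling each cell to 1000000 reads on genes). The summed CPM of the 15 endoderm markers in epiblast-like cells had a median of 1852, 487 and 4044 at the 3 stages. Over all 15, 4, 1 and 12 were read in at least 50% of epiblast-like cells at the 3 stages, and at E5.5 7 were at 0 (Gata4, Gata6, Sox17, Sox7, Foxa2, Pdgfra and Cubn). In the other direction, Pou5f1 was read in all 21 E6.5 endoderm-like cells at a mean of 7.61, in 3 of 8 at E5.5, at 0.45, and in 55 of 56 at E4.5, at 8.66. The trophoblast marker Elf5 was read in 22 of 28 epiblast-like cells at E6.5, in 1 of 19 at E4.5 and in 0 of 51 at E5.5. In endoderm-like cells Elf5 was read in 17 of 21 at E6.5, 0 of 56 at E4.5 and 0 of 8 at E5.5. The part of these reads in the values of the 6 genes was not tested. The stages also differ in the prefix of the cell names, so stage and any batch that follows the prefix cannot be told apart, and the E4.5 embryos carry 1 prefix for embryos 1 and 2 and another for embryos 3 to 5.

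The comparison of lineages within E4.5 embryos gave the clearest separation. Otx2, Pou3f1 and Lef1 were higher in epiblast-like than in endoderm-like cells of the same embryo, while Fgf5, Sox3 and Zic2 did not pass the test. Reads were summed over the cells of each embryo and lineage, with embryo as a block in the fit, for the 4 embryos with at least 3 cells of both. Of 12391 genes tested, edgeR called 3.8% higher and 6.53% lower in epiblast-like cells (Benjamini-Hochberg adjusted p under 0.05), and of the 6 genes 3 were called higher and 0 lower. DESeq2 and limma each called 3 higher and 0 lower as well. Over all genes DESeq2 called 996 higher and 1787 lower of 12391, and limma 605 and 1258 of 13450. At an unadjusted p under 0.05, edgeR passed 4 of the 6 and 3089 of the 12391 genes.

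Otx2 in the summed reads of epiblast-like cells of E4.5 embryos 1 to 4 stood at 134, 102, 73.9 and 43.8 CPM. In the endoderm-like cells of the same embryos it stood at 0.508, 0, 14.7 and 4.54 CPM. The lineages did not overlap, and the log2 fold change was 4.84 ± 0.88 (SE, n = 4 embryos, edgeR adjusted p = 0.00170), from 3.85 without embryo 1 to 6.07 without embryo 3. Otx2 was read in 18 of 19 epiblast-like cells (94.7%, exact binomial 95% interval 74 to 99.9%) and in 9 of 56 endoderm-like cells (16.1%, 7.62 to 28.3%). These intervals treat cells as independent, which cells of 1 embryo are not, so they cover counting error only. Reads carry no molecular identifiers. Embryo 5, with 2 epiblast-like cells and left out of the fit, gave 76.5 CPM against 6.86.

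Lef1 gave 131, 85.7, 70.5 and 24.4 CPM in epiblast-like and 6.27, 0, 3.95 and 0.606 CPM in endoderm-like cells of embryos 1 to 4. Each epiblast-like sum was above every endoderm-like sum. The log2 fold change was 5.23 ± 0.87 (SE, n = 4, edgeR adjusted p = 0.000801), and a read was found in 19 of 19 epiblast-like and 5 of 56 endoderm-like cells.

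Pou3f1 in epiblast-like cells stood at 28.7, 40.4, 1.97 and 4.09 CPM. Its endoderm-like sums were 1.19, 0, 0 and 0 CPM. The log2 fold change was 6.53 ± 1.13 (SE, n = 4, edgeR adjusted p = 0.00106). The size of this change depends on endoderm-like sums at or near 0 reads, and without embryo 1, whose 7 reads are the only ones in the endoderm-like cells of embryos 1 to 4, the fitted value was 9.30. With limma on mean CPM it was 3.09. The gene was read in 9 of 19 epiblast-like cells and 3 of 56 endoderm-like cells. Embryos 1 and 2, which share a name prefix, had the higher epiblast-like sums, and within each prefix all 3 of these genes were higher in the epiblast-like cells of each embryo.

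Sox3 was scarce at E4.5, with 0, 11.2, 2.25 and 0.889 CPM in epiblast-like cells and 3 reads in all endoderm-like cells of the 5 embryos together. Its log2 fold change of 5.02 ± 2.28 missed the threshold (edgeR adjusted p = 0.183), and embryo 1 had no read in either lineage. Fgf5 was listed at 81.2, 46.2, 0 and 0 CPM in epiblast-like cells and 52.2, 42.9, 8.34 and 8.78 CPM in endoderm-like cells (log2 fold change -1.80 ± 1.09, adjusted p = 0.322, from -3.30 without embryo 1 to -0.66 without embryo 4). The 2 high Fgf5 embryos were the same in both lineages. In mean log2(CPM + 1) per cell, Pou3f1, Otx2 and Lef1 (3 of the 6) were higher in the epiblast-like cells of all 4 embryos, against 11.8% of the genes tested. Fgf5 was lower in the epiblast-like cells of all 4 embryos, a pattern shared by 18.6% of the genes tested. Zic2 gave 4.33, 36, 5.62 and 2.49 CPM against 19.5, 8.59, 5.27 and 10.5 CPM, and the lineages overlapped (log2 fold change -0.51 ± 1.12, adjusted p = 0.835). It was read in 13 of 19 epiblast-like and 39 of 56 endoderm-like cells.

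**Figure D1:**
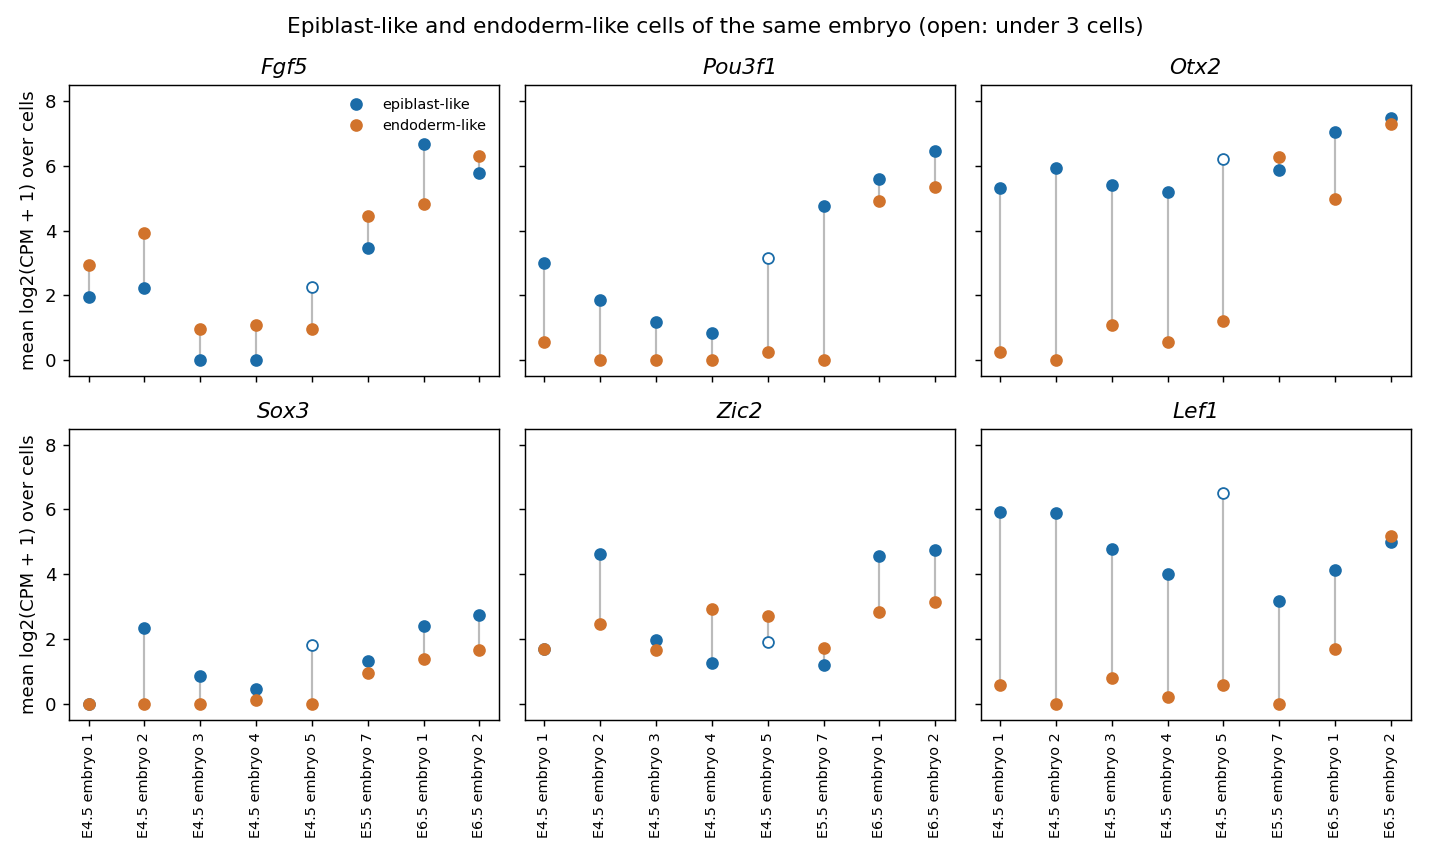
Mean log2(CPM + 1) over epiblast-like (blue) and endoderm-like (orange) cells of each embryo, joined by a line within an embryo; open symbols are means over fewer than 3 cells. Otx2, Lef1 and Pou3f1 separate the lineages in every E4.5 embryo, at E5.5 Otx2 does not while Pou3f1 and Lef1 are at 0 in endoderm-like cells, and for Sox3 and Zic2 in E4.5 embryo 1 the 2 symbols coincide.

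Where the 5 E4.5 cells that 1 more cluster set apart were left out, a choice made after seeing the data, the 3 genes were again called, with log2 fold changes of 8.81 for Otx2, 12.14 for Lef1 and 7.52 for Pou3f1. These cells were placed with the endoderm but held both sets of markers, with mean log2(CPM + 1) of 9.70 for Cubn and 10.2 for Pou5f1. They carried much of the endoderm-like signal: Otx2 was read in all 5, at a mean of 5.56, and Lef1 in 4, at a mean of 4.45.

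At E5.5, with a single embryo, the lineages were not tested against each other, and the values are a description. Pou3f1 and Lef1 were the genes that separated the cells: Pou3f1 was read in 43 of 51 epiblast-like cells at 58.8 CPM in the summed reads and Lef1 in 35 of 51 at 36.9 CPM, and neither had a read in the 8 endoderm-like cells, where 0 of 8 still allows up to 37.5% with a read. Otx2 was read in all 8 endoderm-like cells, at 163 CPM in the summed reads against 128 CPM in epiblast-like cells. Fgf5 was also higher in the endoderm-like cells, at 137 against 39.2 CPM, with reads in 6 of 8 cells. Zic2 stood at 5.88 against 3.09 CPM and Sox3 at 3.20 against 6.12 CPM. All 8 endoderm-like cells have cell numbers that are multiples of 12, and no other kept E5.5 cell has, so lineage and whatever the cell number stands for cannot be told apart at this stage. Of the 10 epiblast markers, 2 were read in at least 50% of these 8 cells and Fgf4 in none, and their summed CPM was 118 over the 8 cells and 3.26 to 407 in single cells. Their part in the Fgf5 and Otx2 values was not tested.

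At E6.5 no gene passed the test between the lineages. edgeR called 0% of the 12391 genes higher and 0% lower over the 2 embryos, with 438 genes at an unadjusted p under 0.05. DESeq2 called 17 higher and 26 lower and limma 0. Of the 6 genes edgeR, DESeq2 and limma called 0, and 0 had an unadjusted p under 0.05 with any of them. Otx2 stood at 131 and 176 CPM in epiblast-like cells of embryos 1 and 2 and at 67.4 and 192 CPM in their endoderm-like cells. Pou3f1 was at 42.9 and 81.9 CPM against 30.2 and 69.5 CPM, so that embryo 2 was the higher in both lineages. Fgf5 was at 137 and 77.2 CPM against 57.5 and 148 CPM, and the embryos pointed in opposite directions. Lef1 was at 42.7 and 40.9 CPM against 3.87 and 39.3 CPM, with the gap in embryo 1 alone. Zic2 gave 33.2 and 22.6 CPM against 5.98 and 18.3, and Sox3 8.30 and 6.98 CPM against 2.11 and 5.76. The log2 fold changes of the 6 genes ranged from 0.31 ± 1.23 for Fgf5 to 1.91 ± 1.18 for Lef1. In mean log2(CPM + 1) per cell, 4 of the 6 (Pou3f1, Otx2, Sox3 and Zic2) were higher in epiblast-like cells of both embryos, against 25.9% of all genes tested, and 0 were lower in both, against 33.9%. The 4 endoderm-like cells of embryo 2 are few for a sum.

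The mesoderm-like cells of E6.5 embryo 2 were set beside the epiblast-like cells of the same embryo without a test. Lef1 was at 127 CPM in their summed reads against 40.9 CPM and was read in all 23 cells, and Zic2 was at 37.3 against 22.6 CPM. Pou3f1 was lower, at 35 against 81.9 CPM, while Fgf5 (80.7 against 77.2 CPM) and Otx2 (140 against 176 CPM) differed less. Sox3 was at 3.25 against 6.98 CPM.

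The difference between stages in the lineage gap was tested in the same fit. For Pou3f1 the epiblast-like minus endoderm-like change was smaller at E6.5 than at E4.5 by a log2 difference of -6.01 ± 1.58, with an unadjusted p of 0.00147 that did not pass the adjustment (edgeR adjusted p = 0.116). The Pou3f1 difference was -8.79 without E4.5 embryo 1 and -2.21 with limma on mean CPM. Otx2 gave -4.27 ± 1.33 (adjusted p = 0.211) and Lef1 -3.32 ± 1.42 (adjusted p = 0.444), the last being -5.06 when E6.5 embryo 1 was left out and -1.60 when embryo 2 was. edgeR called 0.629% of the genes higher and 0.234% lower, and 0 of the 6. At an unadjusted p under 0.05 edgeR passed 3 of the 6 and 1201 of the 12391 genes. DESeq2 called 2 of the 6 lower, against 140 of 12391 genes, and limma 0, against 4 of 13450. Of the alternatives, 5 others also called 1 to 3 of these genes, and their values are given with the processing. Over the same contrast 8 of the 15 endoderm markers were higher and 1 lower, and 1 of the 10 epiblast markers was lower, and their part in these values was not tested.

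**Figure D2:**
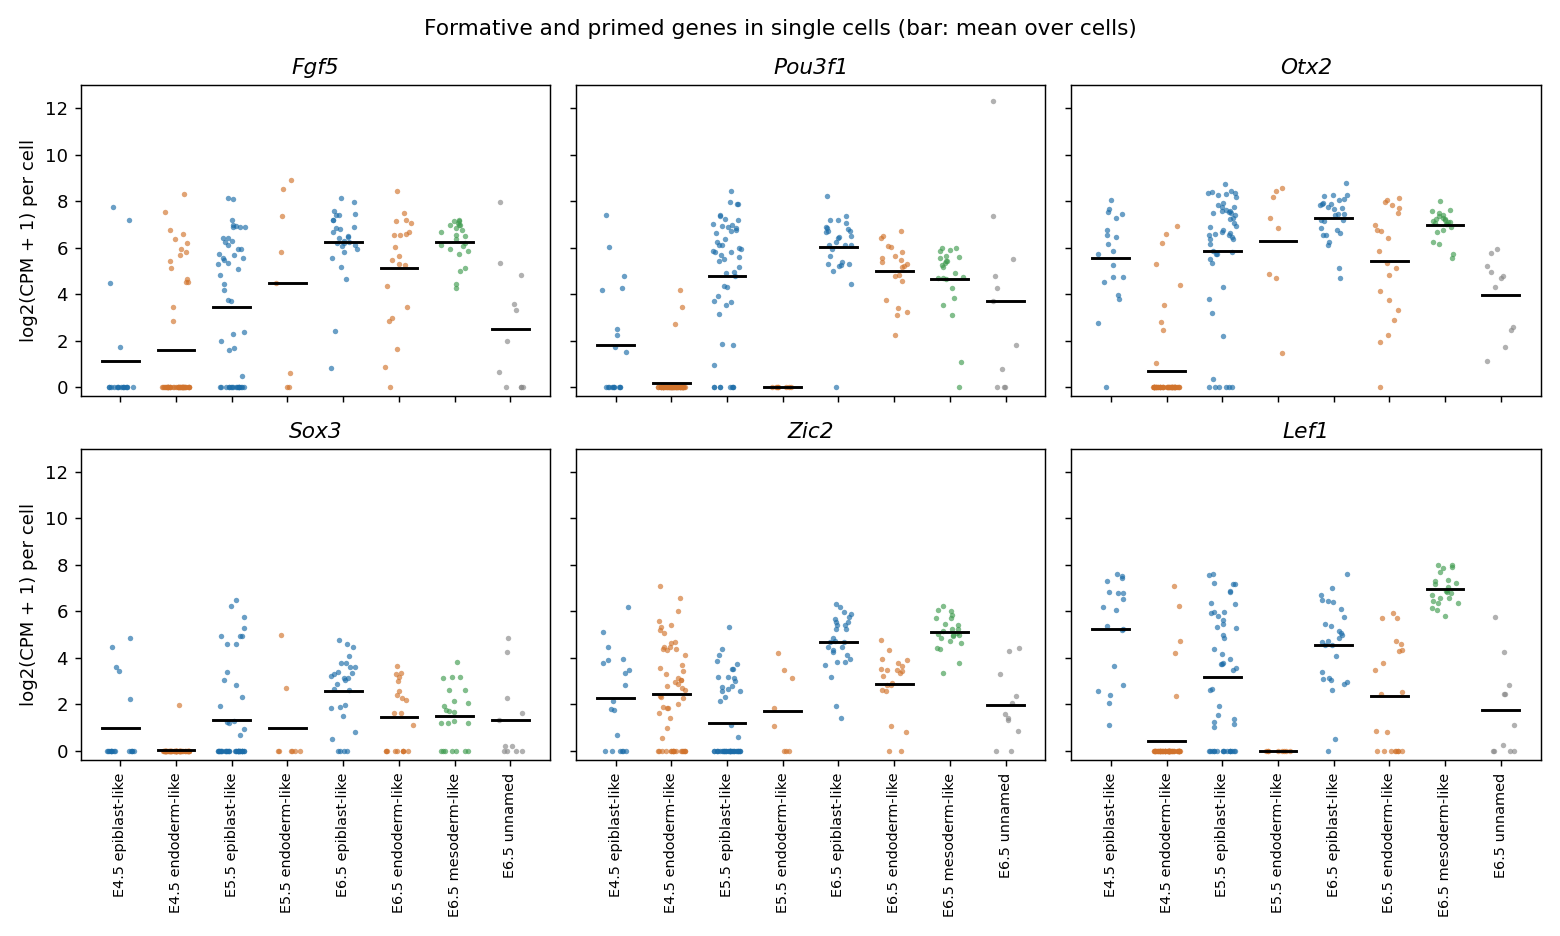
Values of the 6 genes in each of the 217 kept cells as log2(CPM + 1), by stage and group, with a bar at the mean over cells. At E4.5 most endoderm-like cells are at 0 for Otx2, Lef1 and Pou3f1, at E6.5 most cells of each named group hold reads of Fgf5, Pou3f1 and Otx2, and 1 unnamed E6.5 cell stands at over 12 for Pou3f1.

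Between stages the epiblast-like cells were compared over 4 E4.5 embryos, 1 E5.5 embryo and 2 E6.5 embryos in 1 fit that assumes the lone E5.5 embryo to vary like the others. None of the 6 genes passed the test in any of the 3 comparisons, while the embryo means of log2(CPM + 1) of Fgf5, Pou3f1, Otx2 and Sox3 at E6.5 were above those of every E4.5 embryo in the fit. In the summed CPM that the test uses, E4.5 and E6.5 embryos overlapped for Fgf5, Otx2 and Sox3, and Pou3f1 alone of these kept the order. From E4.5 to E6.5 edgeR called 1.3% of 12869 genes higher and 1.55% lower. From E4.5 to E5.5 the shares were 0.225% and 0.256%, and from E5.5 to E6.5 0.0544% and 0.155%. Of the 6 genes, edgeR, DESeq2 and limma each called 0 in every comparison. At an unadjusted p under 0.05 edgeR and DESeq2 passed 0 in each, and limma 2 from E4.5 to E6.5 and 0 in the others. Over all genes from E4.5 to E6.5 edgeR passed 2691 of 12869 at this level, DESeq2 2438 of 12869 and limma 3165 of 12413.

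Fgf5 had mean log2(CPM + 1) values of 1.94, 2.23, 0 and 0 in E4.5 embryos 1 to 4, 3.46 at E5.5 and 6.68 and 5.78 in the E6.5 embryos. The stages did not overlap on this scale, and the E4.5 embryos averaged 1.04 ± 1.21 (SD, n = 4) and the E6.5 embryos 6.23 ± 0.64 (SD, n = 2). In summed reads E4.5 embryo 1 (81.2 CPM) was above E6.5 embryo 2 (77.2 CPM) and E4.5 embryos 1 and 2 above the E5.5 embryo (39.2 CPM), with a log2 fold change of 1.95 ± 1.47 (SE, edgeR adjusted p = 0.511). Leaving out E4.5 embryo 1 gave 2.96 and leaving out E6.5 embryo 1 gave 1.33. Over all alternatives it ran from 0.84 with the embryo number as a block to 3.93 with limma. Of the Fgf5 CPM summed over all 19 E4.5 cells, embryo 5 included, 99.4% was in 3 cells, against 24.9% in the top 3 of 28 cells at E6.5. The gene was read in 4 of 19, 34 of 51 and 28 of 28 epiblast-like cells at the 3 stages.

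Pou3f1 had the same order, with embryo means of 3.00, 1.85, 1.18 and 0.83 at E4.5, 4.78 at E5.5 and 5.61 and 6.47 at E6.5. The E5.5 and E6.5 embryos were all above the E4.5 embryos on this scale. The summed reads gave log2 fold changes of 1.78 ± 1.18 from E4.5 to E5.5 (edgeR adjusted p = 0.612) and 1.86 ± 0.98 from E4.5 to E6.5 (adjusted p = 0.301). It was read in 9 of 19, 43 of 51 and 27 of 28 cells.

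Otx2 was read in most epiblast-like cells at each stage, with means of log2(CPM + 1) of 5.33, 5.94, 5.42 and 5.19 at E4.5, 5.86 at E5.5 and 7.05 and 7.49 at E6.5. The E6.5 embryos were above all others on this scale, and the E5.5 embryo was within the E4.5 range. In summed reads E4.5 embryo 1 (134 CPM) was above E6.5 embryo 1 (131 CPM). The log2 fold change of the summed reads from E4.5 to E6.5 was 0.92 ± 0.47 (edgeR adjusted p = 0.278).

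Sox3 had the fewest reads of the 6 genes, with embryo means of 0, 2.33, 0.86 and 0.45 at E4.5, 1.31 at E5.5 and 2.40 and 2.74 at E6.5. The margin between the highest E4.5 embryo and the lower E6.5 embryo was the difference between 2.33 and 2.40, and in summed reads E4.5 embryo 2 (11.2 CPM) was above both E6.5 embryos. The log2 fold change was 1.23 ± 1.83 (edgeR adjusted p = 0.790), from 0.80 without E4.5 embryo 1 to 2.91 without E4.5 embryo 2.

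Zic2 had its lowest mean at E5.5, 1.18, below all 4 E4.5 embryos (1.71, 4.64, 1.96 and 1.27) and both E6.5 embryos (4.56 and 4.76), while in summed reads E5.5 (3.09 CPM) was above E4.5 embryo 4 (2.49 CPM). E4.5 embryo 2 lay at the E6.5 level, so these stages overlapped. From E5.5 to E6.5 the log2 fold change of the summed reads was 3.21 ± 2.09 (edgeR adjusted p = 1), and from E4.5 to E6.5 1.36 ± 1.21 (adjusted p = 0.597), or 2.87 without E4.5 embryo 2. From E4.5 to E5.5 it was -1.86 ± 1.84 (adjusted p = 0.809), or -0.31 without E4.5 embryo 2. It was read in 20 of 51 cells at E5.5 and in 28 of 28 at E6.5.

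Lef1 had means of 5.94, 5.88, 4.79 and 4.0 at E4.5, 3.19 at E5.5 and 4.12 and 4.98 at E6.5. The E5.5 embryo was below all others on this scale but above E4.5 embryo 4 in summed reads (36.9 against 24.4 CPM), and the E4.5 and E6.5 embryos overlapped. The log2 fold change was -0.96 ± 0.89 from E4.5 to E5.5 (edgeR adjusted p = 0.790) and -0.75 ± 0.67 from E4.5 to E6.5 (adjusted p = 0.598). Over the alternatives these ran from -1.54 to 0.44 and from -2.01 to 0.72, the lowest with the stricter cell filter and the highest with all kept cells in place of epiblast-like ones. Lef1 was read in 19 of 19, 35 of 51 and 27 of 28 cells.

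Read against all genes, these orders are common. Embryo means at E6.5 above all 4 E4.5 embryos were found for 4 of the 6 genes and for 32.6% of the 12869 genes, and below them for 0 of the 6 and 7.01%. The E5.5 mean was above all 4 E4.5 embryos for 2 of the 6 (Fgf5 and Pou3f1) and 15.3% of genes, and below them for 2 (Zic2 and Lef1) and 26.5%. The median log2 fold change from E4.5 to E6.5 was 1.30 over the 6 genes and 0.22 over all genes, and 5 of the 6 values were positive.

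**Figure D3:**
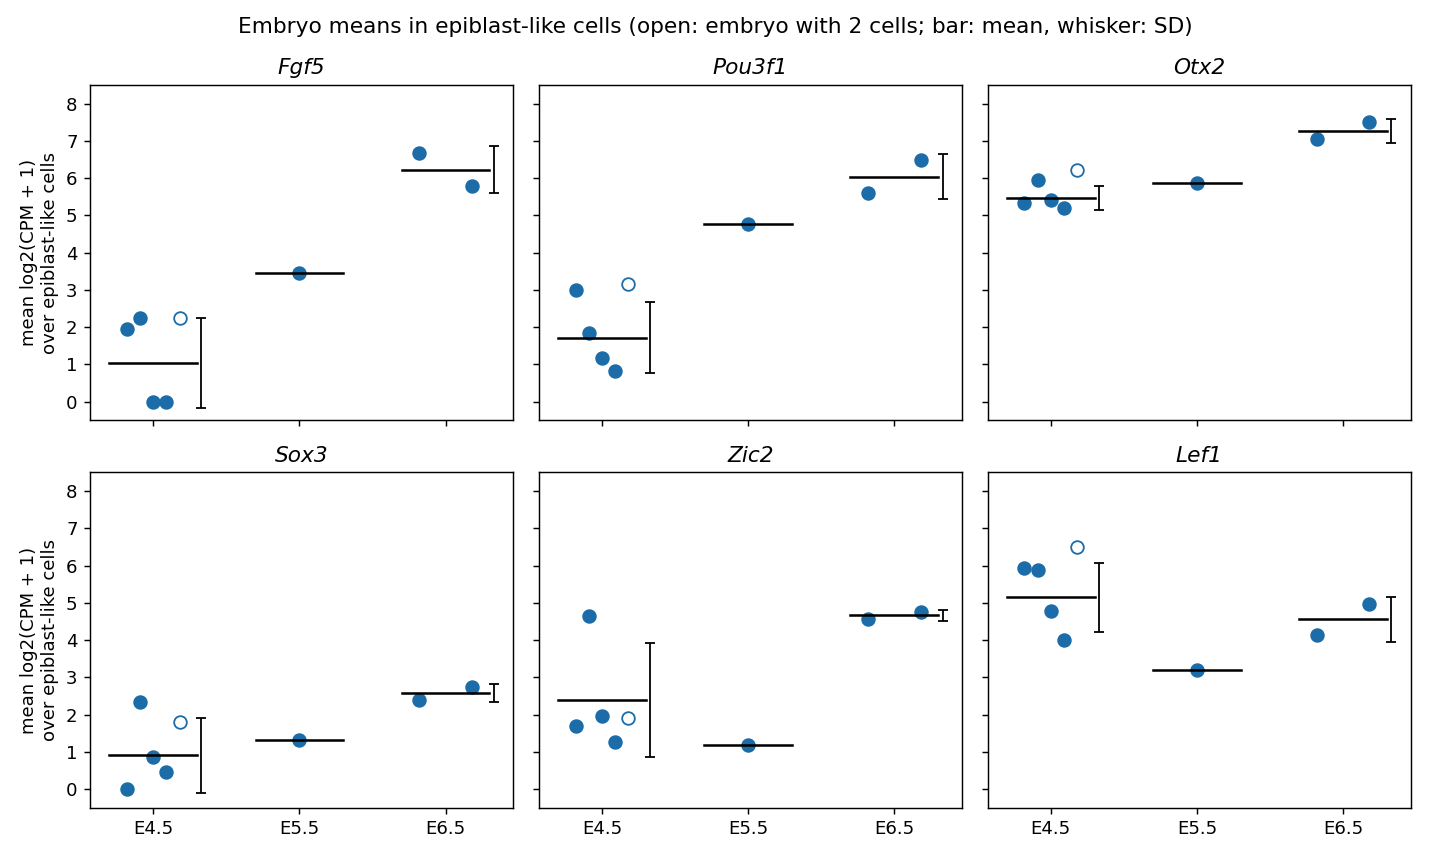
Mean log2(CPM + 1) over the epiblast-like cells of each embryo by stage; the open symbol is E4.5 embryo 5 with 2 cells, which is left out of the mean (bar) and SD (whisker). Fgf5 and Pou3f1 are higher in the E5.5 and E6.5 embryos than in every E4.5 embryo shown, Otx2 and Sox3 at E6.5 also, Lef1 and Zic2 are lowest at E5.5, and for Zic2 E4.5 embryo 2 lies at the E6.5 level.

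Levels of different genes were compared only per length, as CPM of the summed reads per kilobase of annotated exon, for epiblast-like cells. At E4.5 Otx2 came first with 20.9 ± 9.16 (SD, n = 4 embryos), followed by Fgf5 with 12.7 ± 15.8, Lef1 with 8.86 ± 5.0, Pou3f1 with 4.88 ± 4.89, Zic2 with 4.21 ± 5.55 and Sox3 with 1.73 ± 2.50. All neighbours in this order overlapped between embryos. At E5.5 the order was Otx2 (30.3), Fgf5 (15.7), Pou3f1 (15.3), Lef1 (4.2), Sox3 (2.96) and Zic2 (1.07). At E6.5 Fgf5 with 42.7 ± 16.8 (SD, n = 2) and Otx2 with 36.4 ± 7.62 led and overlapped. Pou3f1 (16.2 ± 7.15), Zic2 (9.68 ± 2.60), Lef1 (4.76 ± 0.14) and Sox3 (3.70 ± 0.45) followed, of which Pou3f1 and Zic2 overlapped and the others did not.

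The number of the 6 genes with a read in the same cell was highest at E6.5, where kept cells also had reads on the most genes (a median of 9304, against 6985 at E4.5 and 5242 at E5.5). At least 4 of the 6 were read in 11 of 19 epiblast-like cells at E4.5 (57.9%, exact binomial 95% interval 33.5 to 79.7%), 34 of 51 at E5.5 (66.7%, 52.1 to 79.2%) and 28 of 28 at E6.5 (100%, 87.7 to 100%). After thinning every cell to 50000 reads the shares were 15.8%, 23.5% and 82.1%. In endoderm-like cells the shares as sequenced were 3 of 56 (5.36%), 1 of 8 (12.5%) and 20 of 21 (95.2%), and 1.79%, 12.5% and 38.1% after thinning. The E6.5 endoderm-like share thus stood above the epiblast-like share at the earlier stages as sequenced, and between them and the E6.5 epiblast-like share after thinning. In the E6.5 mesoderm-like cells the share was 23 of 23 as sequenced and 95.7% after thinning, above the epiblast-like 82.1%. In the unnamed cells it was 8 of 11 and 9.09%. By gene, after thinning, Pou3f1 was read in 21.1%, 72.5% and 89.3% of epiblast-like cells and Fgf5 in 15.8%, 49% and 89.3%, while Lef1 was read in 68.4%, 45.1% and 75%. These shares and intervals are over cells of 1 to 5 embryos, which are not independent within an embryo, and carry no test.

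**Figure D4:**
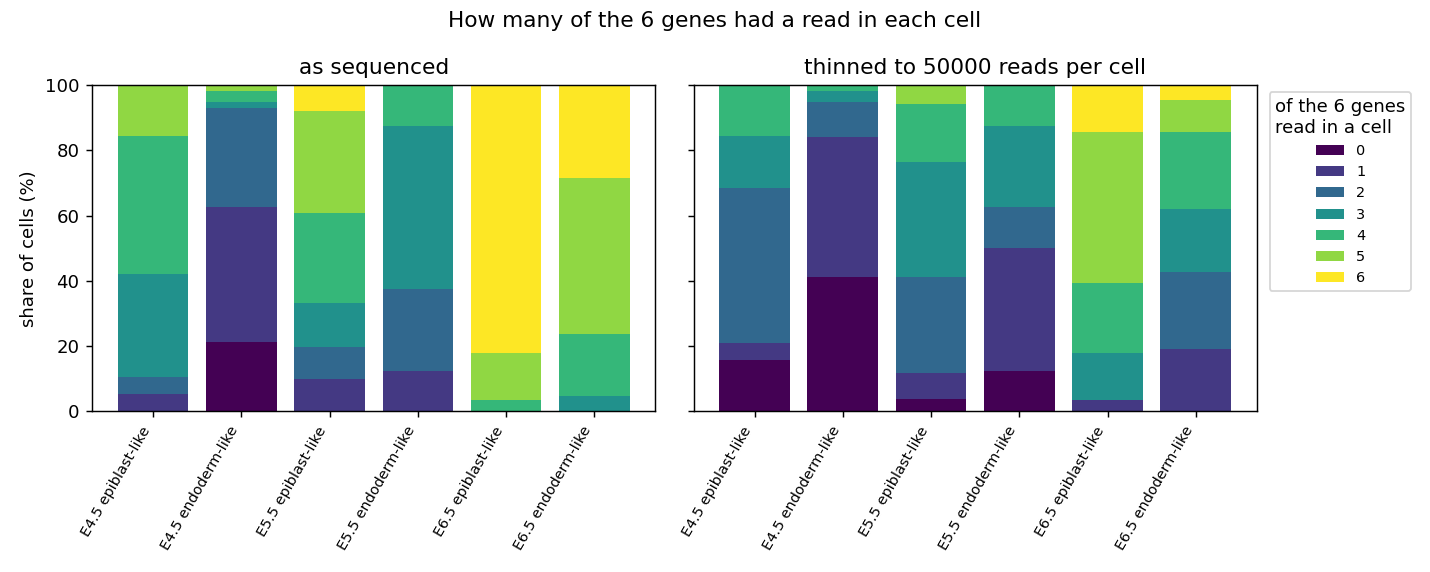
Share of cells (%) by how many of the 6 genes had a read, for epiblast-like and endoderm-like cells at each stage, as sequenced (left) and after thinning to 50000 reads per cell (right). Cells with 4 or more make up 57.9%, 66.7% and 100% of epiblast-like cells as sequenced and 15.8%, 23.5% and 82.1% after thinning.

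Across epiblast-like cells of a stage most pairs of the 6 genes were weakly correlated. Pearson's r of log2(CPM + 1) over the 15 pairs had a median of 0.18 over the 19 E4.5 cells of 5 embryos, 0.11 over the 51 E5.5 cells of 1 embryo and 0.07 over the 28 E6.5 cells of 2 embryos. These are descriptions, since the cells of an embryo are not independent and share depth. Pou3f1 and Sox3 gave r = 0.48, 0.38 and 0.48 at the 3 stages, the pair with the highest value at E4.5 and E5.5. Without the cells that had no read of either gene these were 0.14 over 10 cells, 0.29 over 44 and 0.38 over 27. The highest at E6.5 were Pou3f1 with Otx2 (r = 0.67) and Zic2 with Lef1 (r = 0.54). In the 16 E6.5 cells left by a stricter cell filter these were 0.21 and 0.60, and Pou3f1 with Sox3 was 0.19. Spearman's rho of Pou3f1 with Otx2 was 0.45 over the 28 cells, 0.20 within embryo 1 and 0.31 within embryo 2. At E6.5 Pou3f1 itself gave r = 0.77 with the number of genes read in a cell and -0.71 with log reads, and Otx2 0.56 and -0.46. Within E6.5 embryo 1 the median over pairs was -0.06 and within embryo 2 it was 0.41, with 14 cells in each.

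**Figure D5:**
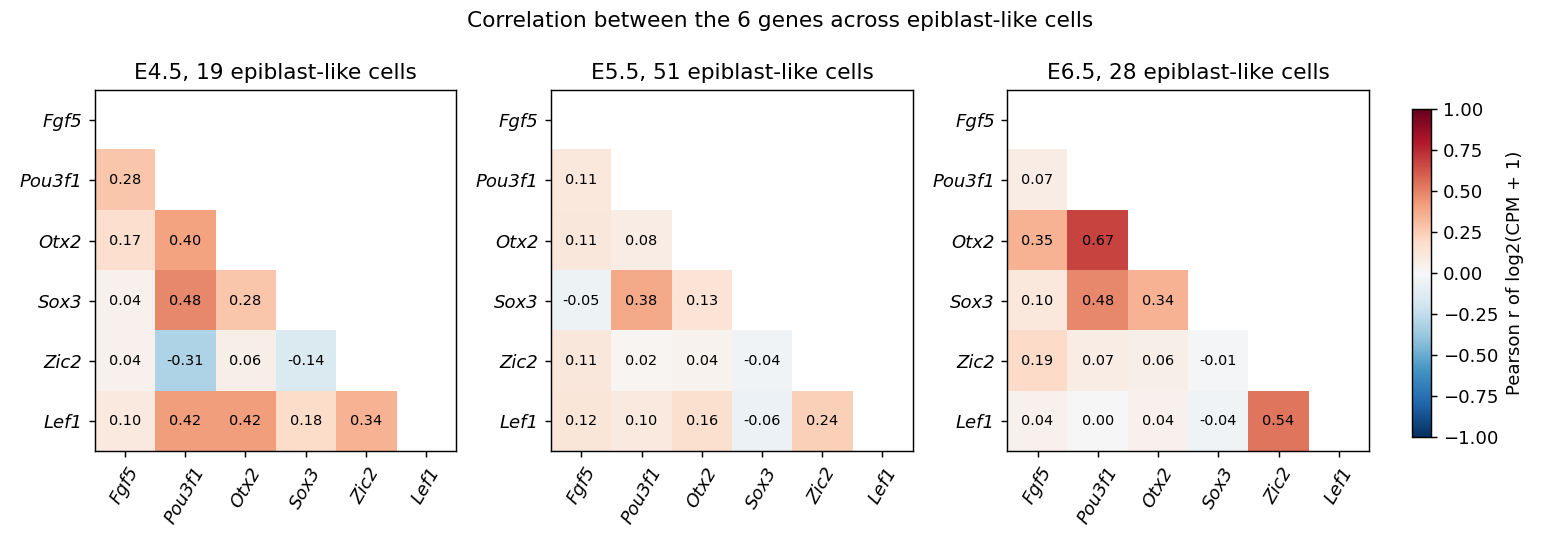
Pearson's r of log2(CPM + 1) between the 6 genes across epiblast-like cells at E4.5 (19 cells), E5.5 (51) and E6.5 (28), on a colour scale from -1 to 1. Pou3f1 with Sox3 is 0.48, 0.38 and 0.48, and Pou3f1 with Otx2 reaches 0.67 at E6.5.

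Over the 18 groups of at least 3 cells formed by embryo and lineage, the genes whose mean log2(CPM + 1) was most like each of the 6, out of 11614 genes, were ranked by Pearson's r. For Pou3f1 these were Ptprf (r = 0.97), Map7d3 (0.93) and Zfp280c (0.93), and for Lef1 Tor3a (0.96), Phc1 (0.95) and Ina (0.94). Otx2 had Eras (0.92) and Hmga1 (0.91), Fgf5 had Enpp2 (0.90), Nt5dc2 (0.89) and Vezf1 (0.88), Zic2 had Wdr35 (0.89), Atp6v0e2 (0.85) and Kmt5c (0.85), and Sox3 had Atcay (0.88), Adgrv1 (0.87) and Gm11627 (0.86). The groups share embryos and stages, and 1 of them, the unnamed cells of E6.5 embryo 1, holds a cell with Pou3f1 at 5005 CPM. None of the other 5 genes was among the 3 most like any of the 6, and the closest was Otx2 to Sox3, at rank 22 in the order of Sox3 (r = 0.78).

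Other genes of the same transitions were followed as lists. Of 13 naive pluripotency genes, all tested, 6 fell and 0 rose from E4.5 to E5.5 in epiblast-like cells, and 8 fell and 0 rose from E4.5 to E6.5 (edgeR). The median log2 fold changes were -7.40 and -5.48, against 0.04 and 0.22 over all genes. Esrrb, an orphan nuclear receptor of the naive network, fell by 12.04 on the log2 scale to E5.5 (edgeR adjusted p = 0.00831), where 1 read was left, and by 3.59 to E6.5 (adjusted p = 0.0269). Fbxo15 fell by 9.36 to E5.5 (adjusted p = 0.0347). Klf2, a Kruppel-like factor, fell by 7.92 (adjusted p = 0.000923) and Nr0b1 by 6.6 (adjusted p = 0.000661) to E6.5. Tcl1 went from 40.2 to 130 CPM in the 4 E4.5 embryos to no read, at least 2252-fold lower at E5.5 and at least 1492-fold lower at E6.5 against a floor of 3 reads over the stage. From E5.5 to E6.5 Dppa3 fell by 4.21 (adjusted p = 0.0412) and Esrrb rose by 8.45 (adjusted p = 0.0383).

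Of 15 other formative and primed genes, 1 rose and 1 fell from E4.5 to E5.5, and 1 rose and 2 fell from E4.5 to E6.5. Dnmt3b, a de novo DNA methyltransferase, rose in both, by 2.33 ± 0.35 (adjusted p = 0.0122) and 2.31 ± 0.30 (adjusted p = 0.000706). Tcf15 fell in both, by 3.29 (adjusted p = 0.0432) and 4.62 (adjusted p = 0.000244). In E4.5 epiblast-like against endoderm-like cells 6 of these 15 were higher and 0 lower, among them Fgf15, a growth factor (5.96 ± 1.75, adjusted p = 0.0390), Sox11 (3.90 ± 1.0, adjusted p = 0.0188) and Grhl2 (3.44 ± 0.70, adjusted p = 0.00402). Of the naive genes 12 were tested there, 5 were higher and 2 lower, with Klf2 (4.95), Esrrb (4.06) and Tfcp2l1 (2.86) the largest increases, and Tbx3 (-1.70) and Klf5 (-1.54) lower. Of 6 Wnt feedback and target genes, such as Axin2 and Sp5, 5 were tested and 0 were called in any of these comparisons. Of 5 anterior neural genes, 3 were tested between stages and 0 called. Between E4.5 lineages 2 were tested, Nes was higher (6.90 ± 1.85, adjusted p = 0.0241) and Hesx1 lower (-9.49 ± 0.97, adjusted p = 8.76e-06) in epiblast-like cells. In the difference between stages of the lineage gap, Hesx1 was higher (7.79), and Klf2 (-8.65), Nr0b1 (-5.39) and Etv5 (-3.35) lower.

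Of 15 paralogs of the 6 genes, 7 reached 10 CPM in an epiblast-like embryo sum and 7 were tested. Fgf4, the growth factor of the naive epiblast, was at 71.1 to 150 CPM in the E4.5 embryos, 47.9 CPM at E5.5 and 2.93 and 4.77 CPM at E6.5, a log2 fold change from E4.5 to E6.5 of -4.89 ± 0.70 (adjusted p = 0.00171). Sox2 was at 93.4 to 160 CPM, 17.4 CPM and 24.1 and 47.6 CPM, and its log2 fold change to E6.5 of -1.65 missed the threshold. Zic5 was at 10.5 to 52.1 CPM, 44.9 CPM and 78.8 and 119 CPM. Of the TCF paralogs of Lef1, Tcf7 was at 2.49 to 11.2 CPM, 9.93 CPM and 26 and 29.7 CPM, Tcf7l1 at 29.2 to 64.7, 26.8 and 21.4 and 48.7 CPM, and Tcf7l2 at 10.7 to 64.9, 14 and 11.5 and 25.6 CPM. Sox1 and Fgf6 had no read in these sums. In E4.5 epiblast-like against endoderm-like cells Sox2 (4.29 ± 0.61, adjusted p = 0.000200) and Fgf4 (4.82 ± 0.77, adjusted p = 0.000607) were higher, and 0 of the 7 were lower. Both are among the markers on which the cells were grouped, so the grouping itself fixed this direction.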

How the data were processed

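Read counts of 264 cells were analysed. Per the submitters' processing notes, reads were trimmed (Trim Galore 0.4.2), aligned to GRCm38 (HISAT2 2.1.0) and counted with featureCounts, and R 3.4.3 was used; the annotation is not given in the sources used here. The authors deposited raw read counts per gene, with no normalization. Symbols were matched for 21907 of 22084 identifiers. Kept cells held 112008 to 8904445 reads. No 2 cells held identical counts, and doublets were not called. The 267 bisulfite libraries were left out.

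From the counts, CPM and log2(CPM + 1) were computed. Cells were grouped by Ward clustering on marker genes into 4 clusters for E6.5 and 2 for either earlier stage, and a cluster was named from at least 3 markers raised by 1 on the log2 scale and read in 50% of its cells. Counts were summed per embryo and lineage (at least 3 cells), the embryo being the replicate, and entered in edgeR 4.0.16 (TMM, quasi-likelihood test, low-count filter, Benjamini-Hochberg threshold 0.05) in R 4.3.3. Embryo was a block between lineages, since both came from 1 animal. The standard error is the fold change over the root of its F statistic. The fits were tested on simulated data. Alternatives were DESeq2 1.42.0, limma 3.58.1 on mean CPM, other cell filters, clusterings, size factors and pseudocounts, and each embryo left out. Thinning drew 50000 reads per cell. Intervals are exact Clopper-Pearson, and a count of 0 was given a floor of 3.

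Named genes are the 6, the 3 most like each, the listed genes past the threshold (the 3 largest changes per list and direction) and paralogs with at least 10 CPM. A few genes that the rule names are not reported here. The 6 genes and the lists were chosen with earlier results of these data known.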

Additional observations from a re-analysis of the deposited data

Results flagged for a closer look

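Sox3 had a mean log2(CPM + 1) of 0.10 in the endoderm-like cells of E4.5 embryo 4, while the other 4 E4.5 embryos were at 0. The value rests on 3 reads in 1 of 19 cells. It stood far from the other embryos by Dixon's criterion, which was applied to 12 groups of embryos and which chance meets in about 1 of 20 groups. With the other embryos all at 0, any read would have met it.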

How the results depend on the processing

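Of 660 log2 fold changes of the 6 genes under alternatives, 626 kept their direction and side of the threshold, 13 passed it only under the alternative, 21 turned direction and 0 lost a call. The E4.5 lineage calls of Otx2, Lef1 and Pou3f1 held in each alternative run. Where all kept cells replaced epiblast-like ones, lineage mix changed with stage, so stage and mix cannot be told apart there. Of these cells 56 of 75 were endoderm-like at E4.5, 8 of 59 at E5.5 and 21 of 83 at E6.5. From E4.5 to E6.5, with all kept cells in place of epiblast-like cells, 2 of the 6 genes were called higher (Pou3f1 3.69, Otx2 2.01). It was 1 without the cell highest in Pou3f1 (Otx2 2.01, Pou3f1 3.11), an alternative added after seeing the data. With and without that cell Lef1 turned to 0.72, to 0.44 from E4.5 to E5.5, and from E5.5 to E6.5 Otx2 turned to -0.33 and Sox3 to -0.040 and -0.038. Without it Pou3f1 turned to -0.050 there. Also from E5.5 to E6.5, Sox3 was -0.21 with Leiden clustering and -0.064 with limma, Pou3f1 -0.073 with the looser cell filter and Lef1 -0.47 with the stricter one. Leaving out each embryo gave -0.33 to 0.33 for Pou3f1 and -0.000512 to 0.33 for Lef1 there, -1.30 to 0.11 for Zic2 between E4.5 lineages and -0.80 to 1.44 for Fgf5 between E6.5 lineages, which was -0.059 with the looser filter. The cause of these turns was not tested.

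For the difference between stages of the lineage gap, the count of the 6 genes called lower went from 0 to 1 with Leiden clustering, 1 with 1 more cluster per stage, 2 without the low-count filter, 2 with DESeq2 and 0 to 1 when an embryo was left out (1 without E4.5 embryo 3). It was 3 without the 5 mixed E4.5 cells, an alternative chosen after seeing the data. Of epiblast-like cells, 15.8%, 23.5% and 82.1% had at least 4 of the 6 genes read after thinning, and at E5.5 81.1% with the stricter filter and 80.6% with Leiden clustering. The E5.5 median correlation was -0.050 with the stricter filter and -0.17 without cells lacking reads of both genes.

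Without the replicate block between lineages, Fgf5 was 0.21 and Zic2 0.18 at E4.5. Between stages embryos share only a number (correlations of their deviations -0.01 and 0.01), and the block on it gave 220 genes higher and 283 lower from E4.5 to E6.5 and called 0 of the 6.

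Over all genes, counts called higher and lower ran from 11 to 305 and 10 to 365 (E4.5 to E5.5), 38 to 1382 and 94 to 659 (E4.5 to E6.5), 2 to 104 and 1 to 90 (E5.5 to E6.5), 278 to 996 and 499 to 1787 (E4.5 lineages), 0 to 18 and 0 to 34 (E6.5 lineages) and 3 to 302 and 4 to 140 (difference). With Leiden clustering E6.5 embryo 2 gave no endoderm-like sum. The E6.5 minus E4.5 difference of Fgf5 in mean log2(CPM + 1), 5.18, was 7.85 at a pseudocount of 0.1, 2.64 at 10 and 3.72 from summed CPM.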

Other observations

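One E6.5 cell of embryo 1, in the unnamed cluster, held Pou3f1 at 5005 CPM (3373 of 673967 reads), 14.5 times the next cell at 346 CPM, and 23.1% of all Pou3f1 reads in kept cells. It had reads on 5169 genes. The highest cell of each of the other 5 genes was at most 1.4 times the next. This cell entered no comparison of lineages. It is 1 of the 5 unnamed cells of E6.5 embryo 1, which are 1 of the 18 groups in the ranking of the genes most like each of the 6. It is also part of the sums of all kept cells, whose lineage mix differed between stages. There Pou3f1 was called higher from E4.5 to E6.5 (3.69, edgeR adjusted p = 0.0324) and without this cell was not called (3.11). The cell was singled out after its value was seen.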
